A study of Homo sapiens with 3 samples.

Results

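ETS transcription factors and the zinc finger factor EGR1 were followed in HCT116, a cell line from a human colorectal cancer. The 10 genes ETV4, ETV5, ETS1, ETS2, ELK1, ELK3, ELF3, GABPA, ERF and EGR1 were taken by symbol from a table of 15625 genes, and each symbol matched 1 row. All 10 had a mean of at least 1 FPKM (fragments scaled to gene length and to the size of the library), the level required for testing, which 11216 genes reached. RNA was sequenced from 1 library of cells given a control shRNA (sh_control) and 2 libraries of cells given an shRNA that targets circRAPGEF5, a circular RNA of the gene RAPGEF5. Every library came from the same line, received an shRNA system and was collected after 36 or 48 h. The labels give all 3 libraries the genotype MT, and they give neither the time of each library nor whether the knockdown libraries carry separate hairpins or are separate cultures. By its title the series asks how circRAPGEF5 bears on RAS/RAF/MEK/ERK signaling.

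The ETS family shares a DNA-binding domain that recognises a GGAA core, and many of its members are end points of the ERK pathway. ERK phosphorylates the ternary complex factors ELK1 and ELK3, which bind beside serum response factor at CArG boxes in the promoters of immediate-early genes such as EGR1. Transcription of ETV4 and ETV5, of the PEA3 group, increases with ERK activity, and the repressor ERF leaves the nucleus when ERK phosphorylates it. ELF3 is an ETS factor of epithelia, and GABPA with its GABPB partners drives genes of mitochondria and basic metabolism.

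Promoter sequences are shown for the 4 members that were at least 2-fold from the control in a knockdown library, ELK3, ELF3, ETS2 and EGR1. Each is the 250 bases before the first annotated start in RefSeq (GRCh38.p14), written 5′ to 3′ on the gene's strand. Capitals mark the ETS core GGAA on either strand (TTCC when read on the other), and in EGR1 also the CArG boxes.
ELK3, chr12:96194125-96194374 (+ strand): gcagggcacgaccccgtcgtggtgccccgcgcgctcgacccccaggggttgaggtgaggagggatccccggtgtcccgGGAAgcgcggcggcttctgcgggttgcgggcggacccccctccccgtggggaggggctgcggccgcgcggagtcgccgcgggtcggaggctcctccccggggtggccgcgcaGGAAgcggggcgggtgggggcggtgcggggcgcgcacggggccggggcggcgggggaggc
ELF3, chr1:202010337-202010586 (+ strand): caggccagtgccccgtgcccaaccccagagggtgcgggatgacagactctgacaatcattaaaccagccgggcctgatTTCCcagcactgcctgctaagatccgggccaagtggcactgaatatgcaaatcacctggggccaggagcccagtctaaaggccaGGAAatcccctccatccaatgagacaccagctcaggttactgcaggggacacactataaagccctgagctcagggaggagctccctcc
ETS2, chr21:38804933-38805182 (+ strand): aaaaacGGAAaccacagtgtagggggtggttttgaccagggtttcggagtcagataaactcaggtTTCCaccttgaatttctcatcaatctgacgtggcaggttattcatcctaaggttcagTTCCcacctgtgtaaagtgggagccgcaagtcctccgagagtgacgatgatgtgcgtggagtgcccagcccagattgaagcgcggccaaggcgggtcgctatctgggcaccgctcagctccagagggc
EGR1, chr5:138465229-138465478 (+ strand): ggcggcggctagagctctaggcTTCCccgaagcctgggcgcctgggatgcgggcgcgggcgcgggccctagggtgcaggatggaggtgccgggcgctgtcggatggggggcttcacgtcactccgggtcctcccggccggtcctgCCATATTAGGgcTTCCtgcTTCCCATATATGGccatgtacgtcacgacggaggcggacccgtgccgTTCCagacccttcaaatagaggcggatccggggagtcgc

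The EGR1 promoter held 2 CArG boxes, with first bases at -105 and -83 from the start site, and 4 ETS cores. An ETS core at -93 lay between the boxes, and another at -86 shared 1 base with the second box. A CArG box was in 1.16% of 35097 RefSeq promoter windows of this length, and at least 2 were in 0.0313%. At least 4 ETS cores were in 34.3% of windows and at least 1 in 92.7%, so the core alone is common. ELK3 and ELF3 held 2 cores each and ETS2 held 3. The later annotated starts of ELK3 and ETS2 had 6 cores each, a number reached in 9.14% of windows. A longer ETS site, CCGGAAG on either strand, which contains the core, was in 8.52% of windows and, among the 7 members with a RefSeq window, only in that of GABPA. The EGR site GCGNGGGCG on either strand was in 8.41% of windows, among them those of EGR1 itself and the first start of ERF. These matches describe letters and not binding.

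ELK3 was the member farthest above the control. Its product is a ternary complex factor that represses transcription until ERK phosphorylates it. ELK3 (Entrez 2004, GRCh38 chromosome 12, 96194382 to 96269835) had 4.42 FPKM in the control, 19.1 in the first knockdown library (library 1) and 13.5 in the second (library 2). Both knockdown libraries lay above the control, at 4.33 and 3.04 times its level. On the log2(FPKM + 1) scale, which is used for every log2 fold change here and understates changes of low genes, the mean log2 fold change was 1.65 ± 0.43 (SE, 95% interval 0.71 to 2.60). The unadjusted p was 0.00245 and the Benjamini-Hochberg adjusted p 0.473 in limma, so ELK3 did not pass the threshold of 0.05. It was the 1 member at least 2-fold higher in both libraries, as 1.21% of all genes tested were. At least 2-fold lower in both were 0 members and 1.7% of genes, and 2.92% of genes met either rule. The mean log2 fold change of ELK3 was farther from 0 than that of 99.4% of genes tested.

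ELK1, the best known ternary complex factor (Entrez 2002, chromosome X, 47635521 to 47650604), was at 13.9 FPKM in the control, 13.5 in library 1 and 18.8 in library 2. Library 1 was level with the control and library 2 above it, with a mean log2 fold change of 0.19 ± 0.42 (SE). The third gene of the group, ELK4, was at 8.27 FPKM against 8.48 and 5.04. The makeup of the group therefore differed between libraries. ELK3 made up 16.6% of the summed FPKM of ELK1, ELK3 and ELK4 in the control, 46.5% in library 1 and 36.0% in library 2. ELK1 transcripts were 3.14 times those of ELK3 per length in the control, 0.708 times in library 1 and 1.40 times in library 2. The sum of the group was 26.6 FPKM in the control, 41.2 in library 1 and 37.3 in library 2. SRF, the partner that these factors bind, was at 16.7 FPKM against 12.4 and 11.97.

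**Figure D1:**
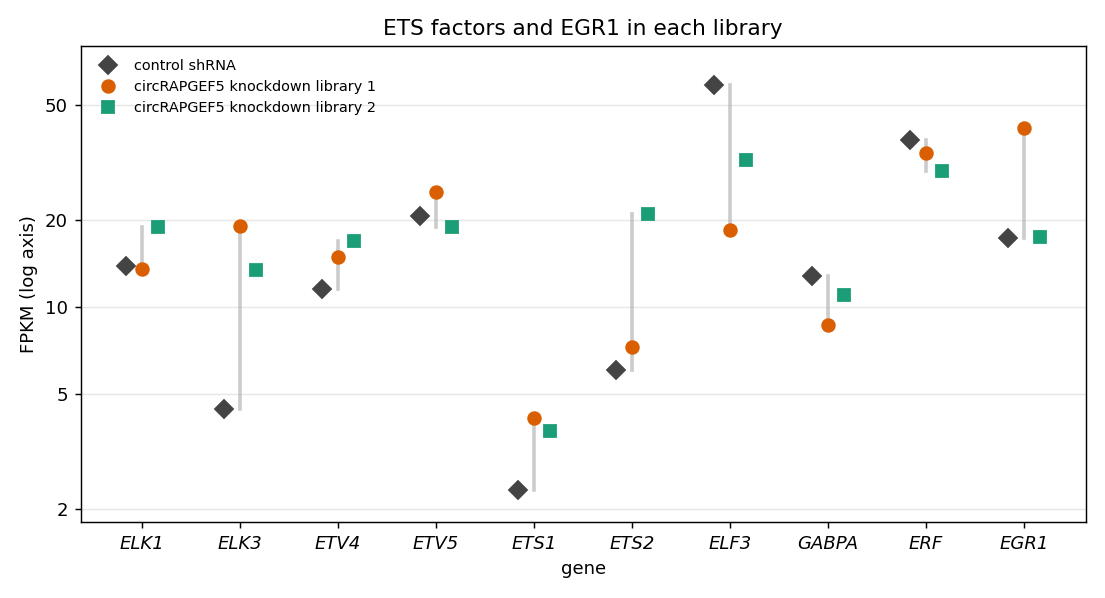
FPKM of each of the 10 genes in the 3 libraries, on a log axis. Diamonds are the control, circles knockdown library 1 and squares knockdown library 2, and the grey line spans the lowest to the highest library. ELK3 lies at 4.42 in the control and at 19.1 and 13.5 in the knockdown libraries, ELF3 at 58.8 against 18.5 and 32.4, while EGR1 and ETS2 stand apart in 1 knockdown library each.

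ELF3 was the member farthest below the control. It encodes an epithelial ETS factor and was the most abundant member per length in the control, with 8.49% of genes tested above it there. The smallest length that fits its values was 3204 bases, and whole multiples of it fit too, against 7191 exon bases in GENCODE v29. This rank and its ratios to other genes therefore depend on the gene model. ELF3 (Entrez 1999, chromosome 1, 202007945 to 202017188) was at 58.8 FPKM in the control, 18.5 in library 1 and 32.4 in library 2. The control stood above both knockdown libraries, at 3.17 times library 1 and 1.82 times library 2. The mean log2 fold change was -1.23 ± 0.44 (SE, 95% interval -2.18 to -0.27), with an unadjusted p of 0.0159 and an adjusted p of 0.614 in limma. In a bulk sample, fewer cells of a type and less RNA per cell cannot be told apart. An antisense gene, ELF3-AS1, covers 9.23% of the annotated exon bases of ELF3, and whether counting used the strand is not stated in the sources at hand. A gene on the same strand, AL691482.3, shares an equal number of exon bases with ELF3 (664), which strand cannot separate.

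The close relative EHF, also an epithelial ETS factor, lay on the other side of the control. It was at 1.68 FPKM in the control, 1.93 in library 1 and 6.13 in library 2. ELF3 was 13.3 times ELK3 per length in the control, 0.969 times in library 1 and 2.41 times in library 2, so the pair was nearly level in library 1. Epithelial identity genes did not go with ELF3 as a group. Of 10 colon epithelial markers, 7 were tested, and their median log2 fold change was 0.04. Of these, 3 were higher in both libraries (31.7% of all genes), 1 lower in both (37.6%) and 3 on opposite sides (30.7%). EPCAM was at 176 FPKM against 170.0 and 191, KRT8 at 1031 against 1084 and 1694, and CDH1, which encodes E-cadherin, at 33.1 against 20.3 and 26.7. The villus marker VIL1 was at or near 0 in every library and KRT20 was at 0.544, 0.403 and 1.96 FPKM, so these markers of mature enterocytes were absent or low.

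ETS1 and ETS2, the founding pair of the family and direct ERK substrates, were higher in both knockdown libraries by different patterns. ETS1 (Entrez 2113, chromosome 11, 128458761 to 128587558) was the lowest member, at 2.32 FPKM in the control, 4.12 in library 1 and 3.72 in library 2. The knockdown libraries lay close together above the control, with a log2 fold change of 0.57 ± 0.44 (SE) and a limma adjusted p of 0.846. ETS2 (Entrez 2114, chromosome 21, 38805307 to 38824955) was at 6.03 FPKM in the control, 7.29 in library 1 and 21.0 in library 2. Library 2 alone stood out, at 3.48 times the control and 2.88 times the other knockdown library. The mean log2 fold change of 0.94 ± 0.55 (SE, limma adjusted p 0.784) came to 0.24 without library 2. ETS2 was 2.60 times ETS1 per length in the control, 1.77 times in library 1 and 5.64 times in library 2. The smallest length that fits the ETS2 values was 7425 bases, against 4595 exon bases in GENCODE v29, so its level relative to other genes depends on the gene model.

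ETV4 and ETV5, the PEA3 members whose transcription is tied to ERK activity, differed little from the control. ETV4 (Entrez 2118, chromosome 17, 43527844 to 43579620) was at 11.5 FPKM in the control, 14.8 in library 1 and 16.9 in library 2. Its log2 fold change was 0.43 ± 0.41 (SE, 95% interval -0.47 to 1.32) with a limma adjusted p of 0.881. ETV5 (Entrez 2119, chromosome 3, 186046308 to 186110318) was at 20.7 FPKM in the control, 25.1 in library 1 and 18.8 in library 2, on opposite sides of the control. Its log2 fold change was 0.07 ± 0.41 (SE, 95% interval -0.82 to 0.97). The third PEA3 gene, ETV1, was at 4.96 FPKM against 2.73 and 7.20. The summed PEA3 level was 37.1 FPKM in the control, 42.7 in library 1 and 42.9 in library 2, with ETV5 giving 55.6%, 58.8% and 43.9% of it. CIC, the repressor that holds down PEA3 genes until ERK acts on it, was at 18.2 FPKM against 14.3 and 13.1.

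GABPA and ERF were lower in both knockdown libraries by amounts within the error. GABPA (Entrez 2551, chromosome 21, 25734570 to 25772460) was at 12.8 FPKM in the control, 8.63 in library 1 and 11.0 in library 2, a log2 fold change of -0.36 ± 0.42 (SE, limma adjusted p 0.909). Its partner genes GABPB1 and GABPB2 were at 5.12 against 5.08 and 5.76, and at 3.59 against 2.14 and 2.32. ERF (Entrez 2077, chromosome 19, 42247572 to 42255157), a repressor, was at 37.7 FPKM in the control, 34.2 in library 1 and 29.5 in library 2, a log2 fold change of -0.24 ± 0.40 (SE, limma adjusted p 0.935). ETV3, the repressor most like ERF, was at 7.52 FPKM against 7.38 and 8.28. Annotated exons of GABPA share 7.61% of their bases with the antisense gene ATP5PF, and those of ERF 4.70% with AC006486.1 on the same strand. Other members with shared exon bases were ELK3 (4.50%, AC008149.1, other strand), ETV5 (2.83%, DGKG, same strand) and ETV4 (1.885%, DHX8, other strand).

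EGR1 differed from the control in library 1 alone. The gene (Entrez 1958, chromosome 5, 138465490 to 138469315) is switched on within minutes of growth factor signals. It was at 17.3 FPKM in the control, 41.6 in library 1 and 17.4 in library 2. Library 1 was at 2.40 times the control, while library 2 could not be told from it (887 reads in the control, 956 in library 2). The mean log2 fold change was 0.61 ± 0.50 (SE, limma adjusted p 0.856), and it came to 0.00 without library 1. Under quantile normalization library 2 lay at -0.004, so its side of the control is not defined. NAB2, a co-repressor that EGR1 induces and that binds EGR1, stood highest in the same library, at 20.7 FPKM in the control, 58.6 in library 1 and 25.5 in library 2. The EGR1 to NAB2 ratio per length was 0.839, 0.710 and 0.681 in the 3 libraries. NAB1, the other co-repressor, was at 8.99 FPKM against 8.87 and 8.54. The other EGR genes had means below the filter and were not tested. EGR2 was at 0.369 FPKM in the control, 1.497 in library 1 and 0.489 in library 2, EGR3 at 0.0930 against 0.904 and 1.47, and EGR4 at 0.0276 against 0.136 and 0.489. The control was the lowest library for each of these 3 genes, as for 31.7% of all genes tested. Their control values lay near 0, and they were named after their values were seen.

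**Figure D2:**
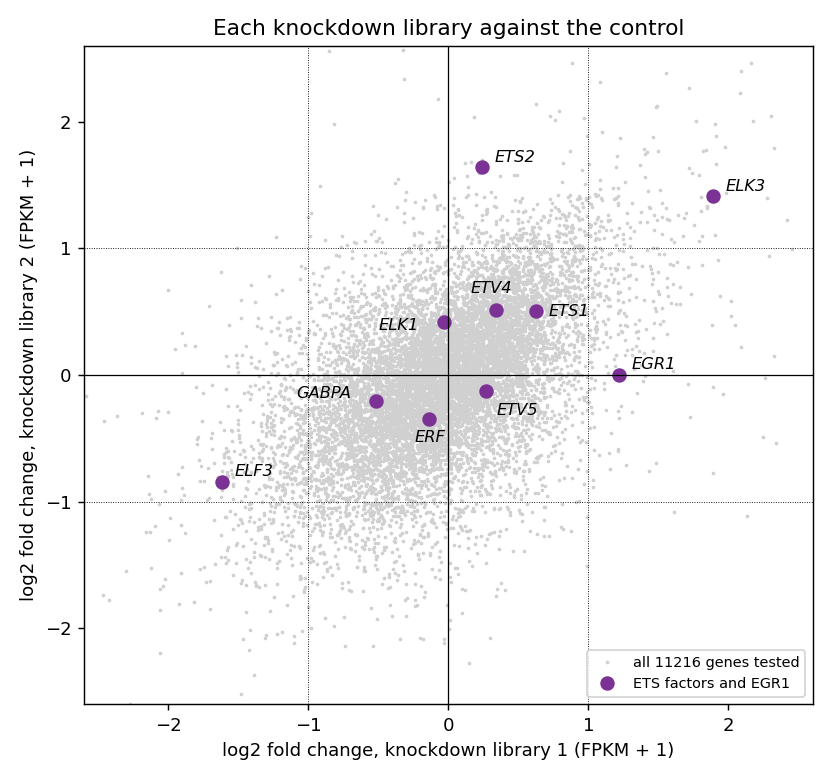
Log2 fold change of knockdown library 1 (x axis) and library 2 (y axis) against the shared control for all 11216 genes tested (grey) and the 10 members (purple). Dotted lines mark 2-fold, and 20 genes lie outside the axes. ELK3 is beyond 2-fold in both libraries, EGR1 in library 1 alone and ETS2 in library 2 alone, and ELF3 is beyond 2-fold in library 1 and short of it in library 2.

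Over the 10 genes, limma called 0 at an adjusted p under 0.05, against 0.0178% of genes tested (2 higher, 0 lower). At an unadjusted p under 0.05 there were 2 (7.07% of all genes), ELK3 among the higher genes (3.08%) and ELF3 among the lower (3.99%). With no filter on low values ELK3 alone remained under 0.05, and ELF3 had an unadjusted p of 0.0816 in limma. Higher in both libraries were 5 members (31.7% of all genes), lower in both 3 (37.6%), and on opposite sides 2 (30.7%). The 5 include EGR1, whose library 2 was level with the control. Under quantile normalization the higher members numbered 4 and those on the same side 7, and under median-ratio rescaling, where ELK1 joined them, 6 and 9. The share on the same side in both libraries, 8 of 10, is near the 69.3% of all genes, where both libraries share the control. Being at least 2-fold from the control in at least 1 library was met by 4 members, against 16.3% of all genes. In library 1 these were ELK3, ELF3 and EGR1 (9.12% of all genes) and in library 2 ETS2 and ELK3 (10.2%). Members had a median log2 fold change of 0.31 and all genes tested one of -0.05. Their median distance from the control was 0.50 against 0.33, and between the knockdown libraries 0.42 against 0.34. EGR1 and ETS2 differed at least 2-fold between the knockdown libraries (8.99% of all genes). With 1 control there is no SD in that group, the residual spread rests on 1 degree of freedom plus limma's prior, and an exact permutation of 1 library against 2 has a smallest possible p of 0.333.

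The order of the members by level was not the same in the control and in the mean of the knockdown libraries. In the control it ran from ELF3 through ERF (37.7 FPKM), ETV5 (20.7), EGR1, ELK1, GABPA, ETV4, ETS2 and ELK3 to ETS1. By the mean of the knockdown libraries ERF was at 31.8 ± 3.35 FPKM, EGR1 at 29.5 ± 17.1, ELF3 at 25.5 ± 9.79 and ETV5 at 22.0 ± 4.41 (SD, n = 2 each). Below them came ELK3 (16.3 ± 4.01), ELK1 (16.2 ± 3.75), ETV4 (15.9 ± 1.46), ETS2 (14.1 ± 9.67) and GABPA (9.80 ± 1.65), with ETS1 last at 3.92 ± 0.288. In that order ETS1 was separated from its neighbour by more than the spread, and the other neighbours overlapped or lay within it. Neither knockdown library alone had the order of the means. ELF3 ranked 1 in library 2, as in the control, and 5 in library 1. EGR1 ranked 1 in library 1 and 6 in library 2, and ETS2 ranked 9 and 3.

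The rest of the ETS family was less abundant in sum, at 60.3 FPKM in the control, 52.2 in library 1 and 55.4 in library 2. The 10 members summed to 185, 187 and 183. These sums include EGR1, which is not an ETS gene, at 17.3 FPKM in the control, 41.6 in library 1 and 17.4 in library 2. Single genes overlapped, with ELF1 in the control above ETV4, ETS2, ELK3 and ETS1. Of the 28 human ETS genes listed, 24 were analysed and 17 were tested, 9 of them members. Among the 8 others, 2 were higher in both libraries (31.7% of all genes), 3 lower in both (37.6%) and 3 on opposite sides (30.7%). Their median log2 fold change was -0.20, and limma called 0 (0 at an unadjusted p under 0.05). ELF2 was at 8.60 FPKM against 3.86 and 4.59, the repressor ETV6 at 5.16 against 1.86 and 3.20, and ELF4 at 9.44 against 7.97 and 6.58. ELF1 was at 12.6 against 16.9 and 12.7. Factors of blood and endothelium were near 0, with SPI1 listed at 0 in the control and ERG at no more than 0.00912 FPKM. All 24 genes summed to 228 FPKM in the control, 198 in library 1 and 221 in library 2. Without ELF3 and ELK3 the sums were 165, 159.9 and 175. The epithelial group of ELF3, ELF5 and EHF gave 26.5% of the family's FPKM in the control, 10.4% in library 1 and 17.5% in library 2. The ternary complex factors gave 11.6%, 20.8% and 16.9%.

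**Figure D3:**
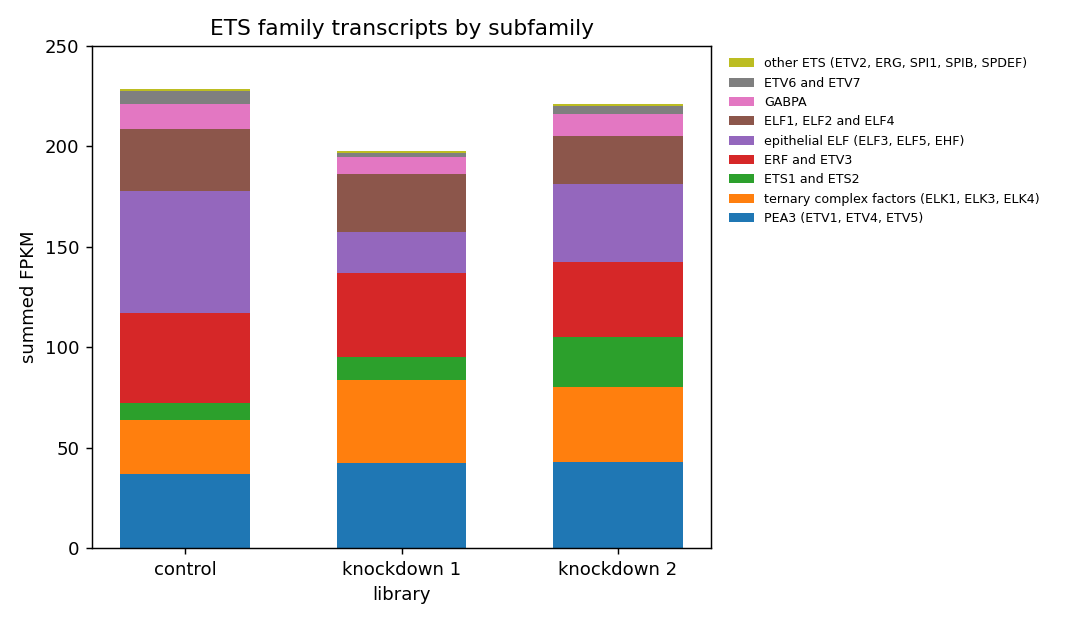
Summed FPKM of the 24 ETS genes in each library, stacked by subfamily. Each bar is 1 library, so there is no error bar. The totals are 228, 198 and 221 FPKM, with the epithelial ELF segment largest in the control (60.5 against 20.6 and 38.6) and the ternary complex factor segment smallest there (26.6 against 41.2 and 37.3).

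Genes around the ETS factors gave mixed patterns, and limma called 0 in each list below at an adjusted p under 0.05. At an unadjusted p under 0.05, which 7.07% of all genes met, there was 1 of 10 tested partners and cofactors, 0 of 8 regulators, 4 of 7 ERK output genes, 1 of 10 immediate-early targets, 2 of 3 invasion genes, 4 of 8 EGR1 targets and 1 of 7 GABP targets. Over all genes tested, 31.7% were higher in both libraries, 37.6% lower in both and 30.7% on opposite sides. Of 10 partners and cofactors, 5 were lower in both libraries, 0 higher in both and 5 on opposite sides (median log2 fold change -0.07). CBFB, the partner subunit of the RUNX factors that bind DNA together with ETS1, was at 51.4 FPKM against 22.0 and 22.2, a log2 fold change of -1.18 ± 0.39 (SE, limma adjusted p 0.580). Of 8 regulators of ETS proteins and genes, 2 were higher in both, 2 lower in both and 4 on opposite sides, with MAPK3 (ERK1) at 28.7 against 15.6 and 25.4.

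ERK output genes, a list drawn from the signature that also holds ETV4 and ETV5, had 6 of 7 tested genes higher in both libraries (31.7% of all genes), 4 of them at least 2-fold (1.21%). Like the other lists, it was chosen with earlier results of these data known, so these counts are a description and no test. CCND1, the cyclin D1 gene and 1 of the 6, was level with the control in library 2, at 114 FPKM against 287 and 117. Their median log2 fold change was 1.21, against 0.43 for ETV4 and 0.07 for ETV5. The difference between these values was not tested, and single genes of the list lay on either side of them, with SPRY2 at 0.42 and PHLDA1 at -0.59. DUSP4, an ERK phosphatase, was at 9.93 FPKM against 53.0 and 44.1. Immediate-early targets of SRF and the ternary complex factors had 6 of 10 tested genes higher in both (31.7% of all genes) and 2 lower in both (37.6%). Their medians were 0.44 (library 1) and 0.03 (library 2). FOS, the textbook target of ELK1, was at 46.8 FPKM against 32.5 and 11.6, opposite in direction to EGR1 in library 1. IER3 was at 118 against 201 and 190.0.

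Of 10 invasion genes known as PEA3 or ETS1 targets, 7 fell below the filter, among them the collagenase MMP1. The urokinase receptor gene PLAUR was at 5.33 FPKM against 13.8 and 22.2 (log2 fold change 1.55 ± 0.44, SE, limma adjusted p 0.494), and MMP14 at 14.6 against 7.54 and 4.38 (-1.20 ± 0.45, limma adjusted p 0.623). Of 8 genes known as EGR1 targets, 5 (NAB2 among them) were higher in both libraries (31.7% of all genes) and 3 lower in both (37.6%). EGR1 itself differed in library 1 alone. GDF15, a stress cytokine, was at 57.4 FPKM against 162 and 253, the tissue factor gene F3 at 7.90 against 19.5 and 28.6, and fibronectin, FN1, at 5.70 against 0.815 and 1.83. Of 7 GABP targets, 3 were higher in both (31.7% of all genes), 2 lower in both (37.6%) and 2 on opposite sides (30.7%). The mitochondrial transcription factor genes TFB2M and TFAM were at 14.1 against 28.4 and 32.2 and at 7.62 against 11.0 and 14.8, with GABPA itself lower in both. The respiratory chain subunit COX4I1 was at 373 FPKM against 381 and 345.

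**Figure D4:**
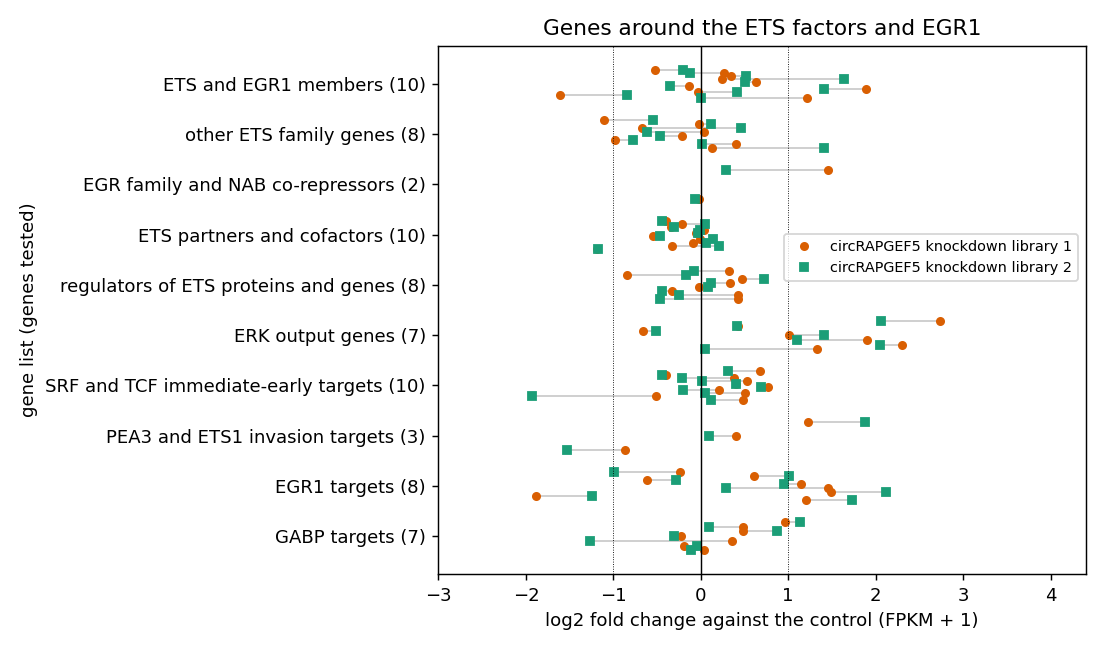
Log2 fold change against the control of each tested gene in the members and 9 related lists. Circles are knockdown library 1, squares library 2, a grey line joins the values of 1 gene, and the number after each list counts its tested genes. The ERK output list lies farthest to the right, with 6 of 7 genes higher in both libraries (31.7% of all genes). The ETS lists lie on both sides of 0. All lists were chosen with earlier results of these data known.

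Depth behind these values was similar. The FPKM values of the 3 libraries resolve into whole reads, and the library totals were 16298851 for the control, 16519907 for library 1 and 17517889 for library 2. The smallest whole reads that fit ran from 213 (ETS1, control) to 3070 (ELF3, control) over the members, and true reads could be a whole multiple. From these reads, the counting error of the lowest library of a member was between 2.72% and 6.85%, as an upper bound. It was below the relative SD between the knockdown libraries for each member. For ERF the smallest reads (402 to 479) imply a length of 779 bases against 3295 annotated exon bases, so they are a lower bound. RAPGEF5 itself was at 1.98 FPKM against 1.33 and 2.73, a gene-level value that does not measure the circular RNA, so the knockdown is not checked here. Markers of other cell types were measured too. Of 7 fibroblast markers 3 were analysed, with summed levels of 14.0, 4.71 and 8.49 FPKM in the 3 libraries, nearly all from COL1A1 (13.4, 4.64 and 8.38), which in the control was above 5 of the members, ETV4, GABPA, ETS2, ELK3 and ETS1. Of 7 leukocyte markers 6 were analysed, at 3.09, 3.96 and 10.2 FPKM in sum with PTPRC at or near 0, and CD68 at 1.30 against 3.55 and 7.50. Of 5 endothelial markers 3 were analysed, at 0.268 FPKM or less in sum. Their part in the values above was not tested.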

How the data were processed

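Polyadenylated RNA was sequenced from 3 HCT116 libraries prepared with the TruSeq Stranded mRNA LT kit, per the labels' protocols. The authors deposited FPKM values per gene, with a transcription factor family name per gene as other annotation, which lists 21 genes as ETS. Trimmomatic, HISAT2 and the GRCh38.p13 genome are named, per the submitters' processing notes. Tool versions, the program that counted fragments, whether it used the strand, and the gene models are not stated in those notes.

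Genes with a mean FPKM of at least 1 were tested on log2(FPKM + 1) in limma (version 3.58.1, R version 4.3.3) with the trend option, knockdown against control, and p-values adjusted over 11216 genes (threshold 0.05). There was 1 residual degree of freedom and a prior of 10.92. The single control is taken to vary as the knockdown libraries do. The labels name no separate cultures, and p-values therefore reflect the spread between these libraries alone, which could be technical. The limma step and the recovery of whole reads were tested on simulated data, with outcomes not reported here. Recovery of reads was scored up to a common factor, so that test cannot show reads that are too low by such a factor. The simulated libraries for limma were drawn from its own fitted trend and prior, with equal variance in the control. They therefore cannot test whether the control varies as the knockdown libraries do. Whole reads were taken from the ratios of FPKM values within a gene, as the smallest that fit. Library totals were taken from gene lengths that came out whole in 94.7% of 7132 genes (relative tolerance of ratios 1e-11, tolerance of lengths 1e-05 bases). Coordinates are from GENCODE v29 (GRCh38). RefSeq promoters were matched by symbol and Entrez number for 7 of 10 members. Genes named beside the members come from all tested ETS, EGR and NAB genes and, in each other list, from the 4 tested genes farthest from the control in the nearer library. GABPB1, COX4I1, EPCAM, VIL1, KRT20, EGR2 to EGR4, SPI1, ERG, MMP1, TFAM and PTPRC were named for their roles after their values were seen, where they fall outside that rule. CCND1, SPRY2 and PHLDA1 of the ERK output list, also outside it, were likewise named after their values were seen. Some genes of the lists enter the counts and are not reported here by themselves. The members and lists were chosen with earlier results of these data known. Alternatives were other pseudocounts, filters, scalings, limma settings, fold thresholds and leaving out each knockdown library.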

Additional observations from a re-analysis of the deposited data

How the results depend on the processing

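No member was called by limma under any of the 9 alternatives with a test, and no member's mean log2 fold change turned sign under them. ELK3 ranged from 1.16 to 1.84 (limma adjusted p 0.372 to 0.924) and ELF3 from -1.36 to -1.10 (limma adjusted p 0.496 to 0.924). ETS1 was not tested with a mean FPKM of at least 5. Over all genes, the 2 higher calls of limma became 1 with a pseudocount of 5, median-ratio rescaling, no trend or robust fitting, and 0 with no filter, quantile normalization or a prior of 5 degrees of freedom. The 1 member at least 2-fold higher in both libraries, ELK3, became 0 with a pseudocount of 5, where its library 2 lay at 0.97. The count was also 0 at 3-fold, since on the log2(FPKM + 1) scale library 2 of ELK3 lay at 1.41. Its FPKM ratio to the control there was 3.04. At 1.5-fold 1 member, ELF3, was lower in both against 0 at 2-fold. With a single knockdown library the members at least 2-fold higher numbered 2 without library 1 (ETS2, ELK3) and 2 without library 2 (ELK3, EGR1), and those lower 0 and 1. ETV5 ranged from -0.13 without library 1 to 0.27 without library 2, and ELK1 from -0.033 without library 2 to 0.42 without library 1. ELK1 in library 1 lay at 0.06 under median-ratio rescaling. With 1 library against 1 no test remains, so calls without a library were not run. No paired analysis was possible because the control label carries no replicate number and the groups share fewer than 2. The single control limits every value here, since its own deviation enters both fold changes.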
